A study of Rattus norvegicus with 11 samples.

Results

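The genes described here are 9 grouped under the heading of activity-induced secreted and synaptic effectors: Ptgs2, Nptx1, Nptx2, Nptxr, Inhba, Plat, Vgf, Scg2 and Nrn1. They were chosen by name. Every non-control probe carrying one of these symbols was taken, which gave 11 probes for 9 of the 35561 gene names on the array. Ptgs2 and Nptx2 had 2 probes each and the other 7 genes had 1. The RNA came from the medial prefrontal cortex of male rats aged 4 months and was measured on single-colour Agilent whole genome arrays, 1 array per rat. In the heroin group (n = 6), rats had licked a spout for intravenous heroin. In the yoked saline group (n = 5), each rat was tied to a heroin rat and was given saline in step with that rat's infusions. All 11 rats had passed 14 days of enforced abstinence and were killed directly after a drug-free extinction session in the chamber. Heroin exposure, control over the infusions and responding in the extinction session differed between the groups together and cannot be told apart.

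In cortex, synaptic activity switches on transcription factors within minutes, and also effector genes whose products leave the cell or reshape its synapses. Ptgs2 encodes cyclooxygenase-2, the inducible enzyme that starts prostaglandin synthesis. The pentraxins Nptx1 and Nptx2, with their membrane-bound relative Nptxr, cluster AMPA-type glutamate receptors. Inhba encodes the subunit that forms activin A, Plat encodes tissue plasminogen activator, Vgf and Scg2 encode granin-family precursors of secreted peptides, and Nrn1 encodes neuritin, a surface-anchored and shed growth factor. Many such promoters carry a cyclic AMP response element, or CRE, the site bound by the transcription factor CREB.

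RefSeq promoter sequences (build GRCr8) were matched for 5 of the 9 genes: Ptgs2, Nptx2, Inhba, Vgf and Scg2. The 250 bases before the start are shown for Ptgs2 and Scg2 because these were the genes that passed both thresholds of the comparison below. Shorter stretches of 60 bases are shown for Vgf and Nptx2 because they hold the CRE, whole in Vgf and in part in Nptx2. All are written 5′ to 3′ on the strand of the gene, and capitals mark the CRE (TGACGTCA), its core (TGACG or CGTCA), the E-box (CACGTG) and the TATA box (TATAAA or TTTATA). Ptgs2 lies on the plus strand at chr13:64713813-64714062, and the other stretches are on the minus strand, Scg2 at chr9:88256867-88257116, Vgf at chr12:25277078-25277137 and Nptx2 at chr12:15162103-15162162.
Ptgs2: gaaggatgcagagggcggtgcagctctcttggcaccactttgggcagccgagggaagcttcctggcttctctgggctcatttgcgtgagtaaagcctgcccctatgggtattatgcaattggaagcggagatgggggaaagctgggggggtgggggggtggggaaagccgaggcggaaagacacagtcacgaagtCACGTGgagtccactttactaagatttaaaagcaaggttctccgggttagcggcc
Scg2: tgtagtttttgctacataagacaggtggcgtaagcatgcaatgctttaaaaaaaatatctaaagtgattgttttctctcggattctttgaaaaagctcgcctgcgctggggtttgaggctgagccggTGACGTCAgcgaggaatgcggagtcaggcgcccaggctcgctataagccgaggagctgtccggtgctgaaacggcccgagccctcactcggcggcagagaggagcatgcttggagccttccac
Vgf: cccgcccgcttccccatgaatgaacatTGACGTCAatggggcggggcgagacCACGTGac
Nptx2: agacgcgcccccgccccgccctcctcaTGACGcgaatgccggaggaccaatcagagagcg

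The whole CRE stood in 2 of the 5 promoters, 123 to 116 bases before the start of Scg2 and 90 to 83 bases before the start of Vgf. It was found in 1.59% of the 33469 rat promoter windows of the same length. The core, which every whole CRE also contains, was present in Scg2, Vgf and Nptx2 and in 18.2% of all windows. The E-box was present in Ptgs2 and Vgf and in 5.59% of all windows, and the TATA box in Vgf and Inhba and in 12.9%. Both strands were searched. A match is a run of letters and says nothing of binding, and the absence of the CRE letters from the Ptgs2 window says only that they are not in these 250 bases.

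Signals are given in array medians: a value of 10 means that the probe was 10 times as bright as the median probe of its array. A probe's level was compared between rats only, not with the level of another probe. Of the 11 probes, 10 were detected on all 11 arrays. The exception was the second Ptgs2 probe, detected on 2 arrays and not tested. It lies at chr13:64444979-64445163 in build rn3, a span longer than its 60 bases, and reads:
Ptgs2 second probe: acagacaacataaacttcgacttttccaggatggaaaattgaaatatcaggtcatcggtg
Its signal stayed between 0.147 and 0.325 array medians in all rats, so the Ptgs2 result rests on the other probe, which is printed in 10 spots. No spot of any of the 11 probes was saturated or marked as an outlier by the scanner software on any array.

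With each array divided by its median, all 9 genes had a higher mean in the heroin rats, by 1.12-fold (Nptx1) to 1.70-fold (Ptgs2), and 8 of 9 after scaling by the 75th percentile or quantile normalization, where Nptx1 was lower. This direction was common on these arrays, since 78.7% of the 25555 tested probes were higher in heroin. The median log2 change was 0.39 over the 9 genes and 0.18 over all tested probes. Only Ptgs2 and Scg2 passed both thresholds that the study's methods set, p below 0.02 before adjustment together with a fold of 1.4 or more. The share of all tested probes that passed in this direction was 1.79%. At an unadjusted p under 0.05, 5 of the 9 genes were higher (Ptgs2, Nptxr, Inhba, Vgf and Scg2), against 15.7% of all tested probes. None of the 9 had an adjusted p under 0.05 (limma with Benjamini-Hochberg adjustment), nor had any of the 25555 probes, of which 4723 had an unadjusted p under 0.05. The methods' t-test, which does not assume equal variances, put 1 of the 9 genes, Scg2, past both thresholds, against 1.21% of all tested probes, with 0 adjusted p under 0.05 among the 9. A limma fit that weighted the arrays by their fit gave an adjusted p under 0.05 to 6 of the 9 (Ptgs2, Nptx2, Nptxr, Inhba, Vgf and Scg2), against 30.8% of all tested probes. For none of the 9 genes did all heroin rats lie above all saline rats, against 1.66% of all tested probes.

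**Figure D1:**
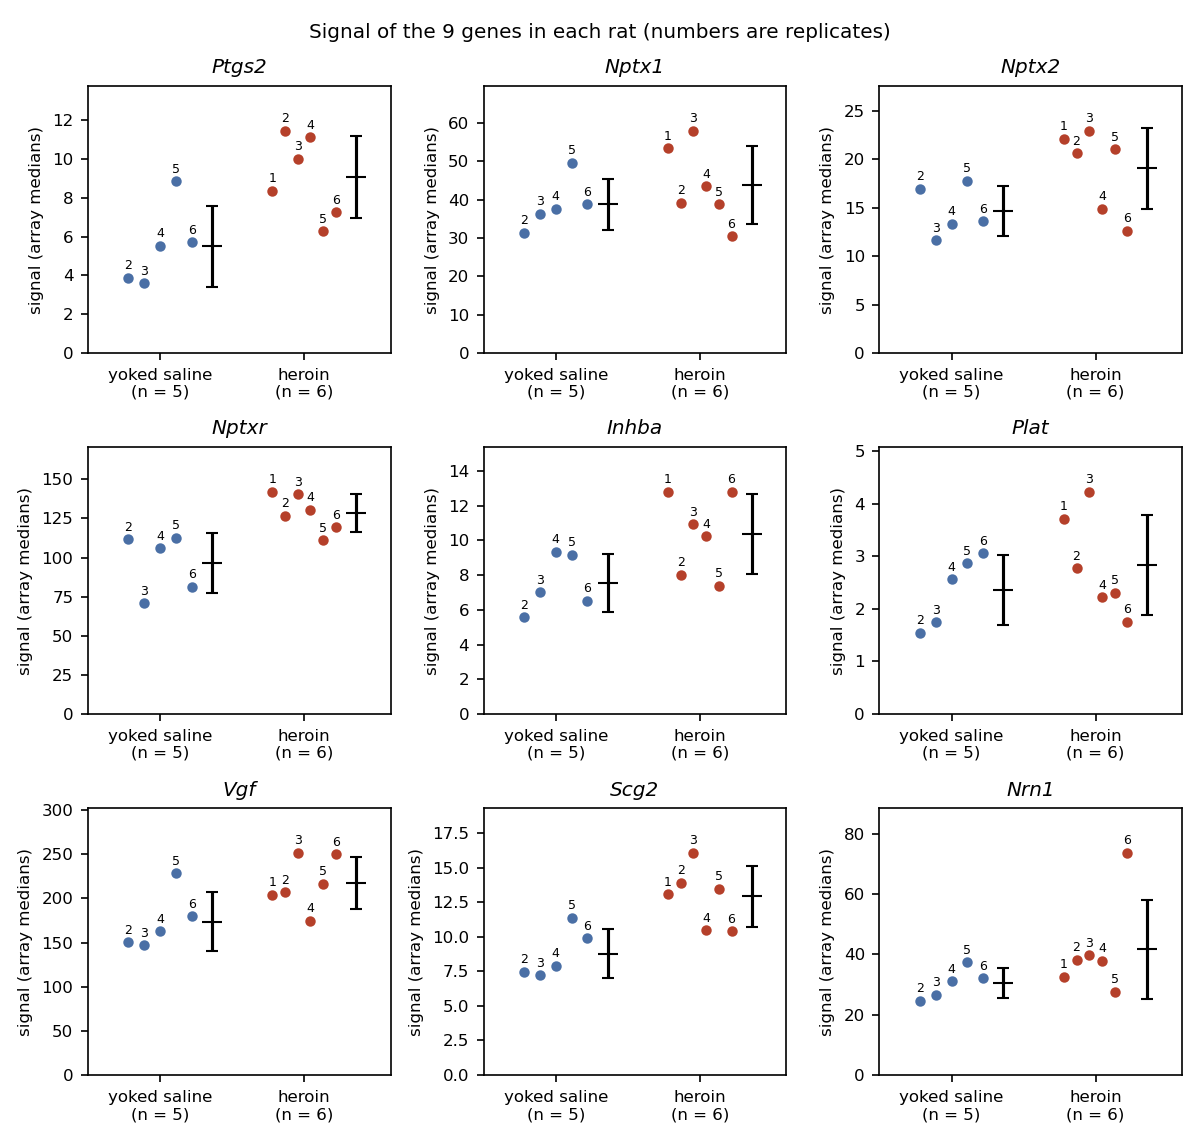
Signal of the main probe of each gene in each rat, in array medians on a linear axis that starts at 0, for yoked saline (blue, n = 5) and heroin (red, n = 6); small numbers are replicate numbers and black bars are the mean ± SD. The groups overlap in all 9 panels, and the separate point in the Nrn1 panel is heroin replicate 6 at 73.8.

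The scaling of the arrays bore on these values. When the arrays were brought to the same distribution by quantile normalization, the median log2 change of all tested probes moved from 0.18 to 0.01 and that of the 9 genes from 0.39 to 0.14. After it 8 of the 9 genes were still higher in heroin, against 53.2% of all tested probes, and Nptx1 was lower. Ptgs2 alone then passed both thresholds, against 0.853% of all tested probes in this direction, and 2 of the 9 (Ptgs2 and Scg2) had an unadjusted p under 0.05, against 4.03%. No gene of the 9 was free of overlap between the groups, against 0.36% of all tested probes with all heroin rats above all saline rats. Relative to the median of all probes, 8 of the 9 genes lay above it under either scaling.

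**Figure D2:**
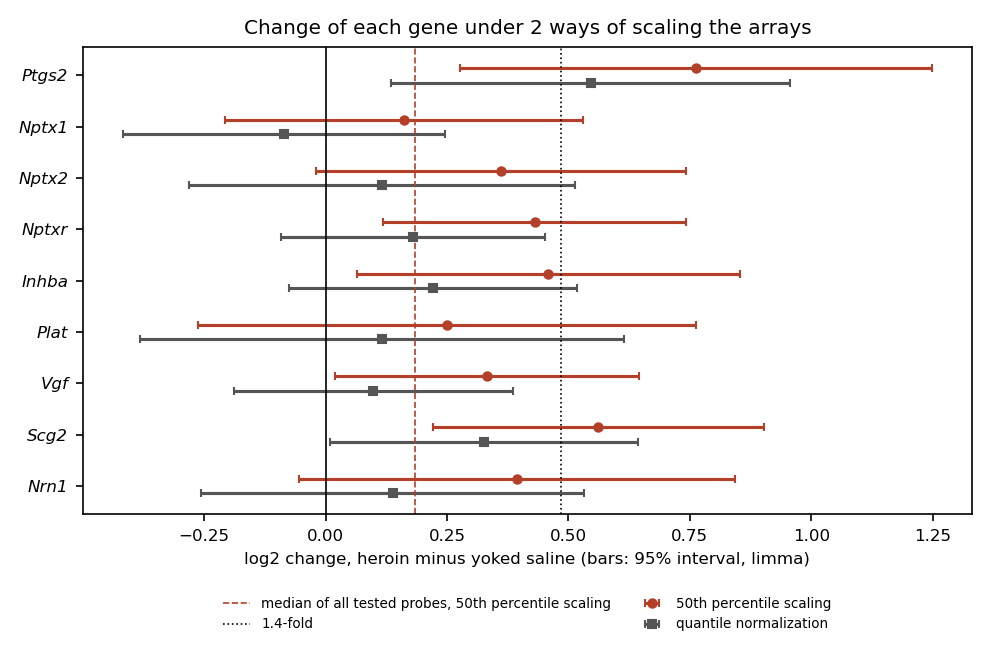
The log2 change (heroin minus yoked saline) of each gene with its 95% interval from limma, after division by the array median (red circles) and after quantile normalization (grey squares). The dashed line is the median of all tested probes under the first scaling, 0.18, and the dotted line is 1.4-fold; Ptgs2 lies beyond the dotted line under both scalings and Scg2 under the first only.

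Ptgs2 had the largest change of the 9 genes. In the yoked saline rats its signal was 3.89, 3.60, 5.54, 8.85 and 5.71 array medians in replicates 2 to 6. In the heroin rats it ranged from 6.29 to 11.5 with a median of 9.20. Of the 6 heroin rats, 3 exceeded every saline rat, and 4 of 5 saline rats lay below every heroin rat, the exception being saline replicate 5. The means were 9.09 ± 2.12 (SD, n = 6) and 5.52 ± 2.09 (SD, n = 5). The log2 change was 0.76 with a standard error of 0.23 (limma p = 0.0044, adjusted p = 0.263), and the exact two-sided permutation p over the 462 divisions of the rats was 0.0216. After quantile normalization the log2 change was 0.55 with a standard error of 0.19 (limma p = 0.0133, exact permutation p = 0.0325). The main probe lies at chr13:64448537-64448596 in build rn3. The count for Ptgs2 was lost with the methods' t-test and after quantile normalization with the replicate block.

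Scg2, secretogranin II, is a granule protein that is cut into the peptide secretoneurin. Its single probe, at chr9:78946953-78947012 in build rn3, reads:
Scg2 probe: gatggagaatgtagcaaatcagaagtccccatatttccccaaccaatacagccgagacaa
Its signal was 7.48, 7.24, 7.91, 11.4 and 9.88 array medians in saline replicates 2 to 6 and ranged from 10.4 to 16.1 with a median of 13.3 in the heroin rats. All saline rats but replicate 5 lay below every heroin rat, and replicate 5 reached into the heroin range. The means were 12.9 ± 2.17 (SD, n = 6) and 8.78 ± 1.79 (SD, n = 5). Its log2 change was 0.56 with a standard error of 0.16 (limma p = 0.0031, adjusted p = 0.263, exact permutation p = 0.0152). After quantile normalization it was 0.33, under 1.4-fold, with p = 0.0451 by limma and 0.0628 by the exact permutation test. The call was also lost after 75th percentile scaling and normexp background correction. Scg2 is on the study's own list of changed genes from these same arrays, so its count here is not independent evidence.

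Vgf, the other granin-family gene, is a nerve growth factor-inducible precursor of several secreted peptides. Its signal was 150, 147, 163, 228 and 180.03 array medians in saline replicates 2 to 6 and 175 to 252 with a median of 212 in the heroin rats. Of the 5 saline rats, 3 lay below every heroin rat, and again replicate 5 was the highest of its group. Its log2 change was 0.33 with a standard error of 0.15 (limma p = 0.0389, exact permutation p = 0.0476), which is under 1.4-fold. Quantile normalization brought it to 0.10 (exact permutation p = 0.459). Scg2 and Vgf, the promoters that hold the whole CRE, thus stood on different sides of the thresholds, and the difference between them was not tested.

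Among the pentraxin genes, the receptor Nptxr had the smallest p. Its signal was 112, 71.0, 106, 113 and 81.4 array medians in saline replicates 2 to 6 and 111 to 142 with a median of 129 in the heroin rats. All heroin rats but replicate 5, at 111, exceeded every saline rat, and replicate 5 lay just under saline replicates 2 and 5. Its log2 change was 0.43 with a standard error of 0.15 (limma p = 0.0103, exact permutation p = 0.00866), short of 1.4-fold. Quantile normalization brought it to 0.18 (exact permutation p = 0.184).

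Nptx2, also called Narp, is the pentraxin best known as an immediate early gene. Its brighter probe gave 17.0, 11.6, 13.3, 17.8 and 13.6 array medians in saline replicates 2 to 6 and 12.6 to 23.0 with a median of 20.8 in the heroin rats. Heroin replicates 1, 2, 3 and 5 exceeded every saline rat, while replicates 4 and 6 lay inside the saline range. Its difference was 0.36 on the log2 scale with a standard error of 0.18 (exact permutation p = 0.0931), and 0.12 after quantile normalization. The second probe, which lies on the same strand at chr12:10389782-10389841 against chr12:10388840-10388899 in build rn3, gave a log2 change of 0.43 with a standard error of 0.20 (exact permutation p = 0.0866) and 0.24 after quantile normalization. Both probes thus ran in the same direction and neither passed both thresholds.

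Nptx1 showed no difference beyond the spread between rats. Its signal ranged from 31.4 to 49.6 array medians in saline and from 30.5 to 58.0 in heroin, and each group's range covered most of the other's. Its log2 change was 0.16 with a 95% interval from -0.21 to 0.53 (exact permutation p = 0.383), and leaving out each rat gave 0.08 (without heroin replicate 3) to 0.26 (without heroin replicate 6). After quantile normalization it was -0.08 (exact permutation p = 0.636), so its direction depended on the scaling.

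Inhba gave 5.57, 7.03, 9.35, 9.17 and 6.53 array medians in saline replicates 2 to 6 and 7.38 to 12.8 with a median of 10.6 in the heroin rats. Heroin replicates 1, 3, 4 and 6 exceeded every saline rat, and replicates 2 and 5 fell among the saline values. Its log2 change was 0.46, or 1.37-fold, with a standard error of 0.18 (limma p = 0.0257, exact permutation p = 0.0498). It was just outside both thresholds, and after quantile normalization the log2 change was 0.22 (exact permutation p = 0.152).

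Plat, whose product converts plasminogen to plasmin, gave a signal that was on average 9.69 times the lowest one well above background. It was 1.55 to 3.06 array medians in saline and 1.76 to 4.23 in heroin, with 10 spots per array. The group means, 2.36 ± 0.67 and 2.84 ± 0.95 (SD, n = 5 and 6), differed by less than either SD. Its log2 change was 0.25 with a 95% interval from -0.26 to 0.76 (exact permutation p = 0.387), 0.12 after quantile normalization and 0.03 after 75th percentile scaling. Leaving out each rat gave 0.11 (without saline replicate 2) to 0.37 (without heroin replicate 6).

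Nrn1 had 1 heroin rat far above all others. Its signal was 24.7, 26.7, 31.1, 37.5 and 32.2 array medians in saline replicates 2 to 6. In the heroin rats it was between 27.7 and 39.7 in replicates 1 to 5 and 73.8 in replicate 6. With all rats the log2 change was 0.39 with a standard error of 0.21 (exact permutation p = 0.11), and without heroin replicate 6 it was 0.21. After quantile normalization of all rats it was 0.14 (exact permutation p = 0.639).

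The rats that stood at the ends of their groups were often the same. Saline replicate 5 was the highest saline rat for 7 of the 9 genes, all but Inhba and Plat. Heroin replicate 3 was the highest heroin rat for 5 genes (Nptx1, Nptx2, Plat, Vgf and Scg2). Heroin replicate 6 was the lowest for 4 (Nptx1, Nptx2, Plat and Scg2) and the highest for Inhba and Nrn1. After quantile normalization saline replicate 5 was the highest for Ptgs2 alone, while saline replicate 6 was the highest for 5 genes. Left out, saline replicate 5 raised the number of the 9 genes past both thresholds from 2 to 4, by Nptxr and Inhba, and that of all tested probes from 694 to 2352. Without saline replicate 2 the latter was 343 and without saline replicate 3 it was 393.

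Heroin and saline rats with the same replicate number, 5 pairs in all, carried the same scan time in their file headers, and heroin replicate 1 was scanned without a saline array among those analysed. The differences within these 5 pairs are given with each array divided by its median. The heroin rat was higher in all 5 for Scg2, by 0.07 to 1.15 on the log2 scale. It was higher in 4 of 5 for Ptgs2, Nptx2, Nptxr, Inhba, Vgf and Nrn1, in 3 for Nptx1 and in 2 for Plat. Under this scaling 78.7% of all tested probes had a higher mean in heroin. The shares of all probes that were higher in 5 or in 4 pairs were not analysed. For Ptgs2 the difference was 1.56 in pair 2, 1.48 in pair 3, 0.35 in pair 6 and -0.49 in pair 5, with pair 4 between pairs 3 and 6. Under this scaling pair 5 was the reversed pair for Ptgs2, Nptxr, Inhba, Vgf and Nrn1, and pair 6 for Nptx2. With the pair as a block in limma, where heroin replicate 1 dropped out, 4 of the 9 genes were higher at an unadjusted p under 0.05 (Ptgs2, Nptxr, Scg2 and Nrn1), against 7.84% of the 25256 probes fitted. Inhba and Vgf no longer were, and Ptgs2 and Scg2 remained past both thresholds. The reversed pairs depended on the scaling. After quantile normalization Scg2 was lower in the heroin rat of pair 6, at 3.27 against 3.58 on the log2 scale. Nptxr was then reversed in pairs 2 and 6 and Vgf in pairs 4 and 6, and pair 5 was not reversed for either.

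**Figure D3:**
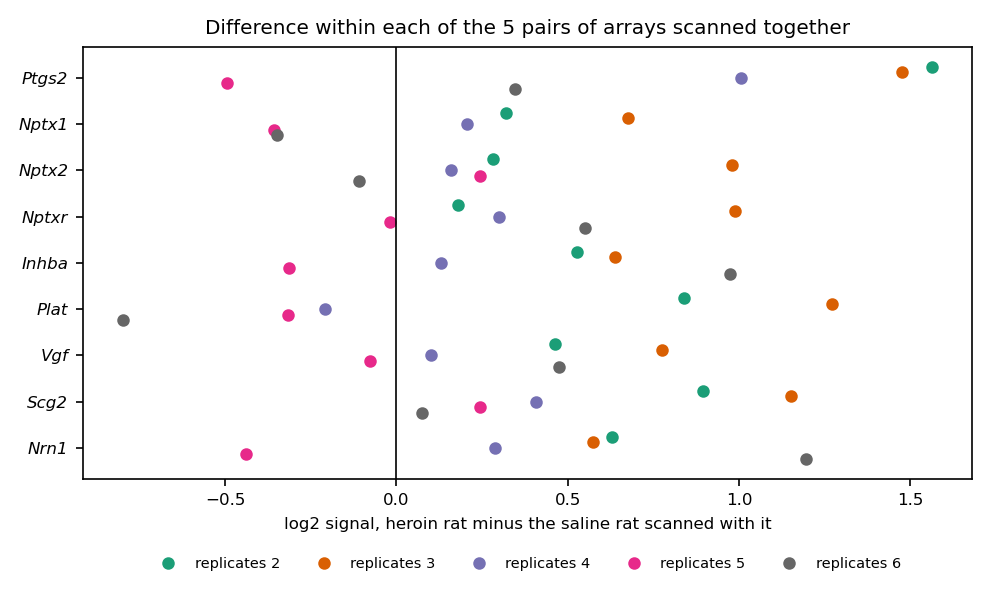
Log2 signal of the heroin rat minus that of the saline rat scanned with it, for the 5 pairs (colours) and each gene. Arrays were divided by their medians. Scg2 lies to the right of 0 in all 5 pairs under this scaling, and Ptgs2 spans from -0.49 to 1.56.

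Depth and tissue makeup were read from the same arrays. The median signal of an array ran from 42.7 to 78.3 in heroin and from 58.0 to 83.2 in saline, and every saline array lay at slide position 3 and every heroin array at position 4, so slide position and group cannot be told apart. All 5 measured neuronal markers and all 6 interneuron markers were detected on all arrays, and 4 of 5 measured striatal markers, Drd2 being detected on 8. The summed interneuron level was 352 to 459 array medians in heroin and 277 to 383 in saline (exact permutation p = 0.0216). Of its 6 markers 6 were higher in heroin, and 2 after quantile normalization, against 78.7% and 53.2% of all tested probes. Their median log2 change was 0.20, against 0.18 for all tested probes. Vip passed both thresholds, but not after quantile normalization, at 0.25. All 4 tested astrocyte and all 4 tested microglial markers were also higher, with medians of 0.23 and 0.22. After quantile normalization 2 and 3 of them were. The neuronal sum was 528 to 704 in 6 heroin rats and 444 to 621 in 4 saline rats with all markers usable. All 5 tested neuronal markers were higher in heroin, and 3 after quantile normalization. Their median log2 change was 0.31, the largest of the marker lists, against 0.18 for all tested probes. After quantile normalization it was 0.10, against 0.01. The endothelial sum was 93.8 to 162 in heroin and 74.0 to 116 in saline (exact permutation p = 0.621), with a median log2 change of 0.10 over 5 markers, of which 1 was higher after quantile normalization. The medians of the 5 oligodendrocyte and 4 striatal markers were -0.01 and -0.13, and none of these was higher after quantile normalization. Their part in the members' values was not tested, and in tissue RNA more cells of a type and more RNA per cell cannot be told apart.

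Partner genes of the same pathways were taken from 6 lists with 85 genes. Of these, 78 had a probe and 64 were detected and tested. Past both thresholds 4 were higher in heroin (Ptgs1, Gria2, Serpini1 and Bdnf) and 1 was lower (Inhbe) at the brightest probe of each gene, against 2.72% of all tested probes in either direction and 0.927% downward. After quantile normalization Bdnf and Inhbe remained past both thresholds and no other partner passed at its brightest probe, against 1.79% of all tested probes in either direction and 0.935% downward. After 75th percentile scaling Bdnf, Inhbe and Ptgis passed, against 779 of the 25555 tested probes, of which 4.24% were higher in heroin. Of the 20 other tested probes of these genes, 4 passed both thresholds under the main scaling, those of Bdnf, Gria2 and Pcsk1 higher and that of Inhbb lower, and those of Pcsk1 and Inhbb also after quantile normalization.

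**Figure D4:**
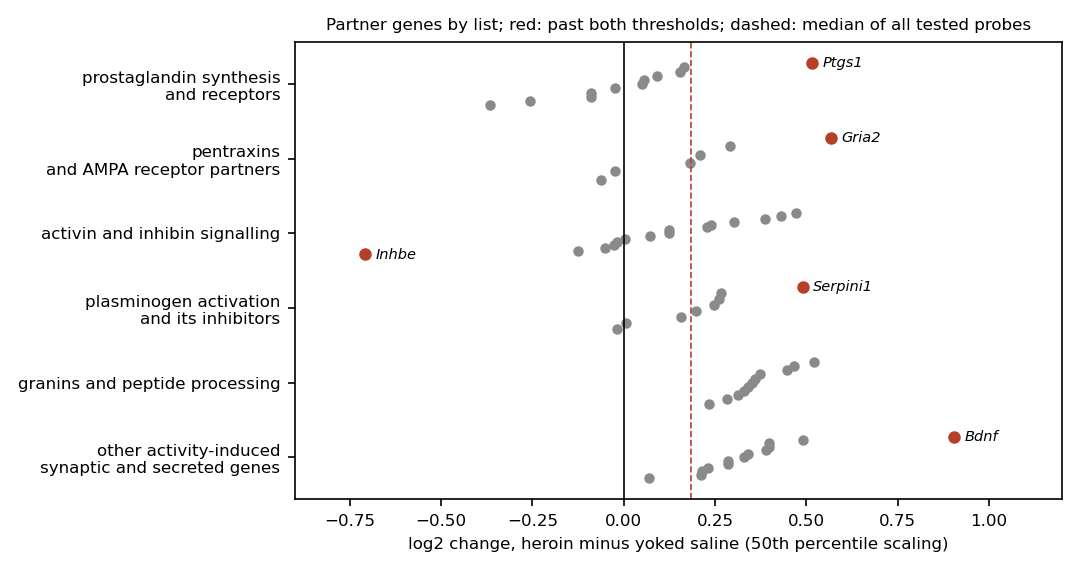
The log2 change (heroin minus yoked saline, arrays divided by their medians) of each tested partner gene at its brightest probe, 1 point per gene, by list; red points are past both thresholds and the dashed line is the median of all tested probes, 0.18. All 11 granin and peptide processing genes and all 13 other activity-induced genes lie to the right of 0 under this scaling (10 and 9 after quantile normalization).

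Of the prostaglandin genes around Ptgs2, 11 were tested, and 1 passed both thresholds. Of them 6 were higher and 5 lower, with a median log2 change of 0.05, and 1 of 11, Ptgs1, was higher after 75th percentile scaling. Ptgs1, the constitutive cyclooxygenase, passed both thresholds with 4.16 ± 0.39 array medians in heroin and 2.97 ± 0.74 in saline (log2 change 0.51, limma p = 0.0046, exact permutation p = 0.00649), and after quantile normalization it was 0.34, under 1.4-fold. Pla2g4a, which releases the arachidonic acid that cyclooxygenases use, had a log2 change of 0.09 (exact permutation p = 0.502). Ptges, which makes prostaglandin E2, had one of 0.16 with a standard error of 0.52. Ptgis, the prostacyclin synthase, was the largest difference downward at -0.37 (exact permutation p = 0.0519). After 75th percentile scaling it was -0.58, past both thresholds, where 4.24% of all probes that passed were higher in heroin. After quantile normalization Ptgis was at -0.43, and Ptgds, the prostaglandin D2 synthase, was lower still at -0.51, neither past both thresholds. The prostaglandin E2 receptor gene Ptger4 was detected on 0 of 11 arrays.

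Among the pentraxins' partners, Gria2, an AMPA receptor subunit gene and a member of the study's list, had 28.5 ± 2.43 array medians in heroin and 19.4 ± 3.76 in saline (log2 change 0.57, limma p = 0.000996, exact permutation p = 0.00433). After quantile normalization its log2 change was 0.32, under 1.4-fold. Gria4, the subunit gene known to be recruited by pentraxins on interneurons, had a log2 change of -0.06 (exact permutation p = 0.779) at its brighter probe and 0.36 at the other (exact permutation p = 0.141). The median of the 6 tested genes was 0.19, close to the 0.18 of all probes.

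The activin list held 15 tested genes with a median log2 change of 0.12. Inhbe, another activin-type subunit gene, had 0.50 ± 0.15 array medians in heroin and 0.82 ± 0.25 in saline (log2 change -0.71, limma p = 0.0062, exact permutation p = 0.0238), so it ran opposite to Inhba under both scalings. Its signal was under the array median in both groups. Smad4, which carries the activin signal to the nucleus, had the largest change upward at 0.47, short of 1.4-fold (limma p = 0.0134, exact permutation p = 0.0303). The receptor gene Acvr2a and the activin-binding Fst had log2 changes of 0.07 and -0.03, and the second Fst probe gave 0.07. The sister receptor gene Acvr2b, named after its values were seen, had 5.11 ± 0.35 array medians in heroin and 3.92 ± 0.44 in saline without overlap (log2 change 0.39, under 1.4-fold, limma p = 0.0052, exact permutation p = 0.00433), and 0.18 after quantile normalization. The 3 probes of Inhbb, the gene of the other activin subunit, disagreed, with log2 changes of 0.24 at the brightest, 0.47 at one other and -0.57, past both thresholds, at the remaining one.

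Of the plasminogen genes 8 were tested, and Serpini1, neuroserpin, the neuronal inhibitor of tissue plasminogen activator, passed both thresholds. It had 63.0 ± 11.5 array medians in heroin and 44.8 ± 8.37 in saline (log2 change 0.49, limma p = 0.0101, exact permutation p = 0.0216), and 0.24 after quantile normalization. It too is on the study's list. Serpinf2 was the lowest of the list at -0.02.

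Scg2 and Vgf are packed with other granins into dense-core vesicles. All 11 tested genes of the granin and peptide processing list were higher in heroin, likewise after 75th percentile scaling. After quantile normalization 10 of 11 were higher and Pcsk1n was lower. None passed both thresholds at its brightest probe. Against this, 78.7% of all tested probes were higher under the main scaling and 53.2% after quantile normalization. Their median log2 change was 0.35, and 0.11 after quantile normalization, against 0.18 and 0.01 for all probes. Scgn, a calcium-binding protein gene of secretory cells, had the largest change over the brightest probes at 0.52 (limma p = 0.0216, exact permutation p = 0.0411). Pcsk2, the prohormone convertase, had 17.7 ± 2.07 array medians in heroin and 12.8 ± 1.41 in saline without overlap between the groups (log2 change 0.47, limma p = 0.0021, and the smallest p the exact permutation test can give, 0.00216). After quantile normalization the log2 change of Pcsk2 at this probe was 0.23. Under the main scaling, 1.66% of all tested probes had all heroin rats above all saline rats. Chgb and Scg3 had log2 changes of 0.33 and 0.31 at their brightest probes, and 0.10 and 0.06 after quantile normalization. The probes of Pcsk1, another prohormone convertase, differed: the brighter gave 0.34 and the dimmer 0.76, with 1.84 ± 0.38 array medians in heroin and 1.12 ± 0.41 in saline (limma p = 0.0033, exact permutation p = 0.0216), which is past both thresholds, also after quantile normalization at 0.74. Of the other activity-induced genes, all 13 tested were higher, 10 after 75th percentile scaling and 9 after quantile normalization, against the same 78.7% and 53.2%. Their median log2 change was 0.33, and 0.09 after quantile normalization. Bdnf, the neurotrophin, had 7.16 ± 1.01 array medians in heroin and 3.95 ± 1.18 in saline without overlap. Its log2 change was 0.90 (limma p = 0.000315, exact permutation p = 0.00216), and 0.70 after quantile normalization. The paper also names Bdnf among its changed genes from these same arrays, so its count here is not independent evidence. Cort had the smallest change of that list at 0.07.

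The genes whose pattern over the 11 rats was most like that of each member were found by Pearson's r on quantile-normalised log2 signal among 9022 named genes. For Ptgs2 they were Txndc1 (r = 0.95), Herc6 (0.93) and Utx (0.91). For Scg2 they were Tmem49 (r = 0.98), Chp (0.97) and Sar1a (0.95). For the other members the nearest was Usp10 for Nptx1, Vps4a for Nptx2, Dlgap4 for Nptxr, Nxph4 for Inhba, Ell2 for Plat, Pdia6 for Vgf and Syde1 for Nrn1, with r from 0.92 to 0.95. No member was among the 3 nearest of another member. The 11 rats belong to both groups, and the values are the highest of 9022, so they are given as a description only.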

How the data were processed

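The authors hybridised Cy3-labelled RNA of each rat to 1 array and deposited the scanner output, in which each spot has an intensity from which Feature Extraction 9.5.1.1 had taken the background. Their second table, deposited as a ratio per probe and rat, served as an alternative here; Vgf was not analysed in it. The methods give 12 arrays, and a further saline array was not analysed here. From the intensities, control spots and marked spots were left out, values under 5 were set to 5, log2 was taken, spots of a probe were averaged and each array was centred on its 50th percentile. A probe was detected where at least 0.5 of its spots were well above background, and probes detected on all 11 arrays were tested (25555). The number of arrays limits the precision.

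Groups, taken from the sample titles, were compared with limma 3.58.1 (lmFit and eBayes under R 4.3.3), and the two-sided p-values were adjusted by Benjamini-Hochberg over all tested probes. An exact permutation test of single probes had a smallest possible p of 0.00216. The t quantiles of the 95% intervals came from scipy 1.17.1. The fits were tested on simulated data. The main probe of a gene is its brightest among those detected on all arrays. Named partners are those past the thresholds, the largest rise and fall of each list, and direct partners fixed by name. Genes and lists were chosen with earlier results of these data known. Alternatives covered scaling, background correction, filters, test, weights, blocks and leaving out each rat. Replicate numbers were checked for pairing: the deviations of same-numbered rats correlated at 0.38, -0.13, 0.35, 0.02 and -0.24. The exon that each probe reads was not analysed here. The result of 1 gene of the lists is not reported here.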

Additional observations from a re-analysis of the deposited data

Results flagged for a closer look

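Nrn1 in heroin replicate 6 stood apart from the other heroin rats, with 73.8 array medians against 39.7 in the next. The gap was 0.632 of the range of the group on the log2 scale, over the limit for 6 samples. It was the only one of 22 groups of member values checked in this way, and chance flags about 5% of such groups. The same rat had the array with the lowest median signal, 42.7, and the lowest weight when arrays were weighted by their fit, 0.26. Its part in the Nrn1 value was not tested.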

How the results depend on the processing

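Over all alternatives, the 9 genes gave 233 values, of which 230 were higher in heroin. The reversed values were those of Nptx1, -0.056 after 75th percentile scaling, -0.085 after quantile normalization and -0.14 after quantile normalization with the replicate block, a fit added after the data were seen. The number of the 9 genes past both thresholds, 2, became 1 after 75th percentile scaling, quantile normalization and normexp background correction (Ptgs2 each time), 1 with the methods' t-test (Scg2), 5 with array weights and 0 after quantile normalization with the replicate block. With array weights 6 of the 9 genes had an adjusted p under 0.05, against 30.8% of all tested probes, and heroin replicate 1 alone had a weight of 3.45. Leaving out each rat gave 2 to 4 of the 9 genes. The number of all tested probes past both thresholds, 694, became 457 after quantile normalization, 126 after normexp, 1560 without the detection filter, 1067 with detection in 1 group, 308 with the methods' t-test, 2380 with array weights and 411 after quantile normalization with the replicate block, and 343 to 2352 when each rat was left out. The share of these that were higher in heroin was 65.9%, and 4.24% after 75th percentile scaling, 47.7% after quantile normalization, 96.8% after normexp, 30.4% without the filter, 43.8% with detection in 1 group and 50.9% after quantile normalization with the replicate block. The same numbers pair arrays of 1 scan time but their deviations did not all correlate, and with the replicate block alone the counts were 2 of the 9 genes and 790 of all tested probes. Except where an alternative tests more or fewer probes or rats, the cause was not tested. The signal of the second Ptgs2 probe, at background on most arrays, limits what it can show.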
